A study of Xenopus laevis with 6 samples.

Results

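The distal tip of hind limb buds from the frog Xenopus laevis, at stage 51, was compared with the proximal, body-side segment at the same stage. The 2 distal libraries were set against the 2 proximal libraries over every gene that passed a filter on low counts. That left 27007 of the 51061 gene IDs in the count table, and 5485 of the 27007 carry a gene symbol. The genes are described by function, from growth machinery to matrix, receptors and the tissues that invade the limb, and not by their rank in the list of largest folds.

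The vertebrate limb bud grows out from its tip, where undifferentiated mesenchyme lies under a signalling ectoderm and keeps dividing, while cells left behind on the body side condense into cartilage, tendon and connective tissue. Blood vessels, muscle precursors, nerve fibres and their glia enter the bud from the trunk, that is, from the proximal side. Xenopus laevis is an allotetraploid frog, so many genes exist as a pair of copies named L and S for the 2 subgenomes, and each copy is counted on its own here.

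Both groups came from wild-type tadpoles at stage 51, given no treatment. Each distal library was made from a pool of distal segments taken from 30 limbs, and each proximal library from a pool of proximal segments taken from 30 limbs. There were 2 such pools for each segment, named Black (replicate 1) and Red (replicate 2). A further 2 libraries of the medial segment entered the fit and share in its estimate of the spread. The labels do not give the borders of the segments or whether pools of the same colour came from the same animals. Pools hide the variation between animals, and each segment contains every tissue at that level, skin included. Assigned fragments per library numbered 23079754 and 14111643 in distal and 10815041 and 35479915 in proximal. Limb identity was checked on genes chosen after their values were seen: prrx1.L, a marker of limb mesenchyme, had 172 and 169.9 CPM in distal and 273 and 261 CPM in proximal libraries, and pitx1.L, which marks the hind limb, had 202 and 196 CPM in distal and 301 and 309.7 CPM in proximal libraries. CPM values are fragment counts relative to the assigned total of a library, scaled by the TMM method.

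Of the 27007 genes tested, 7975 (29.5%) differed between distal and proximal in edgeR's quasi-likelihood test at a Benjamini-Hochberg adjusted p under 0.05. Of these, 3668 (13.6%) were higher in distal and 4307 (15.9%) were lower. The total was 4906 without proximal replicate 2, 4598 without distal replicate 1 and 5220 without distal replicate 2. The 2 directions differed in size. The median log2 fold change, distal over proximal, was 0.72 among the genes called higher and -1.18 among those called lower. Differences of at least 2-fold were found for 1229 genes (4.55%) higher in distal and 2460 genes (9.11%) lower. These were 791 higher without proximal replicate 2, and 776 higher and 1451 lower among genes with 10 or more counts in every library. At a fold of at least 32 the numbers were 60 higher and 166 lower, as the bar chart of call sizes shows. Scaled by exon length and depth, as RPKM, the genes that were higher had a median level of 7.02 RPKM in distal and 3.90 RPKM in proximal. The genes that were lower had a median level of 1.48 RPKM in distal and 3.99 RPKM in proximal. Summed exon length had a median of 2766.5 bases for the genes that were higher, 3195 bases for those that were lower and 2676 bases for those not called.

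**Figure D1:**
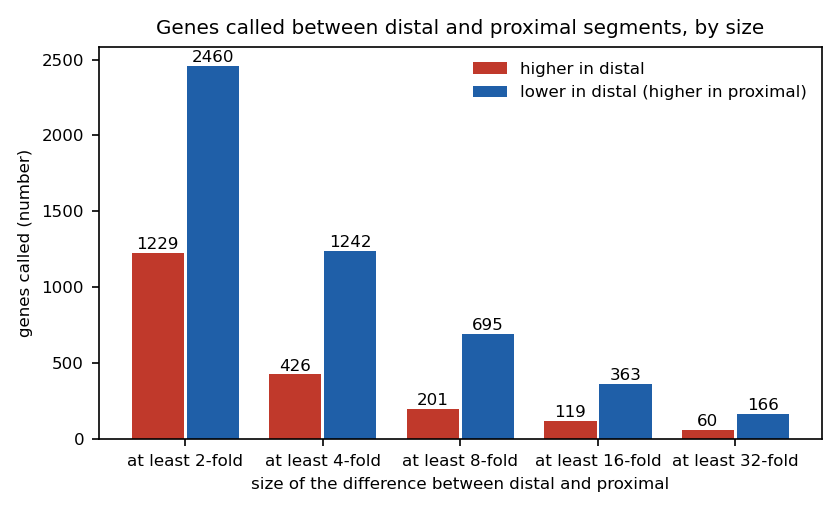
Number of genes called between distal and proximal segments (vertical axis) by the minimum size of the difference (horizontal axis), with genes higher in distal in red and genes lower in distal in blue. At every size more genes were lower than higher in distal, from 1229 against 2460 at 2-fold to 60 against 166 at 32-fold.

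Gene symbols come from the authors' deposited table of their own calls, so a gene has a symbol here only if the authors called it between some pair of segments. Among the 5485 genes with a symbol, 4861 (88.6%) were called, 2260 (41.2%) higher and 2601 (47.4%) lower in distal, with 754 (13.7%) at least 2-fold higher and 1513 (27.6%) at least 2-fold lower. Their median log2 fold change was -0.30, against 0.00 for all 27007 genes. Every list below holds copies with a symbol and is to be read against these shares. In bulk tissue, fewer cells of a type and less RNA per cell cannot be told apart. Fold changes below are log2, distal over proximal, with the standard error of the fit after the sign ±, and n = 2 pools per segment throughout.

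**Figure D2:**
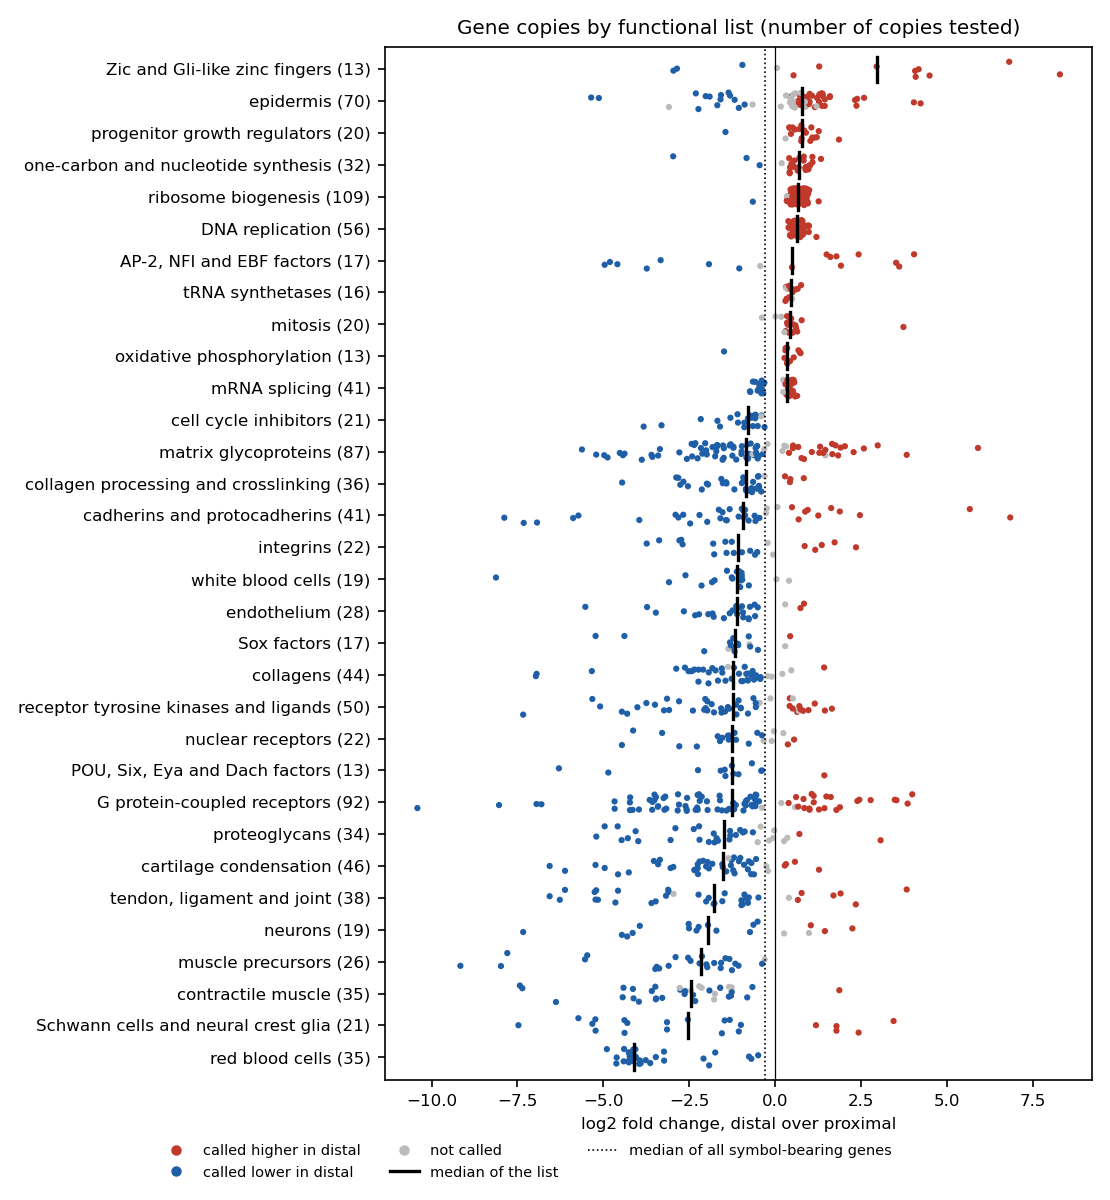
Log2 fold change, distal over proximal (horizontal axis), of every tested copy in 32 functional lists (rows, with the number of copies), in red where called higher in distal, in blue where called lower and in grey where not called. Black bars are list medians and the dotted line is the median of all symbol-bearing genes at -0.30; the copies of DNA replication and ribosome biogenesis genes sit close together, at medians of 0.64 and 0.66, and most copies of red blood cell genes lie far to the left, at a median of -4.09.

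The distal tip carried more RNA for growth machinery, in many small steps. Of 56 tested copies of DNA replication genes, from 46 of the 64 symbols looked for, 54 were higher in distal and none was lower. Their median was 0.64 and their range 0.39 to 1.20. Genes that the authors did not call have no symbol, so copies with steps near 0 can be missing from this list and its range. The summed level of the list was 3228 and 3217 CPM in distal and 1896 and 2133 CPM in proximal libraries. Without distal replicate 1, 30 of the 56 passed, and 4 passed a test for a difference beyond 1.5-fold. The gene pcna encodes the sliding clamp of DNA polymerase. Copy pcna.L had 330.3 and 307 CPM in distal and 181 and 193 CPM in proximal libraries, a fold change of 0.77 ± 0.10 (edgeR adjusted p = 9.90e-05). The replication initiator cdc6.S had the highest fold of these 56 copies, with 12.6 and 13.5 CPM in distal and 3.97 and 6.61 CPM in proximal libraries (1.20 ± 0.21, edgeR adjusted p = 0.00158). In both genes each distal value lay above each proximal value.

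Genes of mitosis had a smaller median step. Only 20 copies, from 17 of the 95 symbols looked for, had a name at all. Of these 16 were higher and none lower in distal, with a median of 0.42 and a range of -0.38 to 3.74. The count fell to 8 without proximal replicate 2 and to 4 without distal replicate 1, and 1 passed beyond 1.5-fold. The kinetochore protein gene cenpf.L had 90.8 and 84.6 CPM in distal and 81.4 and 92.0 CPM in proximal libraries, and topoisomerase top2a.L had 477 and 464 CPM in distal and 374 and 404 CPM in proximal libraries. Neither passed the test (edgeR adjusted p = 0.939 for cenpf.L and 0.0614 for top2a.L), and the values of cenpf.L overlapped between the segments.

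Genes listed as cell cycle inhibitors went the other way. Of 21 copies in that list, 20 were lower in distal and none was higher, with a median of -0.79, with 10 lower beyond 1.5-fold, and the list summed to 828 and 829 CPM in distal and 1642 and 1565 CPM in proximal libraries. The genes gas1 and gas2, named for growth arrest, were among its larger steps. The membrane protein gene gas1.S had 106 and 101 CPM in distal and 325 and 336 CPM in proximal libraries (-1.68 ± 0.09, edgeR adjusted p = 2.08e-07). The cytoskeletal protein gene gas2.L had 5.17 and 4.59 CPM in distal and 71.4 and 68.6 CPM in proximal libraries (-3.83 ± 0.13, edgeR adjusted p = 5.61e-09). Both separated the segments without overlap. Besides arrest, gas1 acts as a co-receptor for Hedgehog ligands.

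Ribosome assembly genes went with those of DNA replication, again counted only among copies with a symbol. Of 109 tested copies of ribosome biogenesis genes, 106 were higher in distal, 1 was lower, and the median was 0.66, with 17 higher beyond 1.5-fold. The list summed to 7752 and 8136 CPM in distal and 5581 and 5224 CPM in proximal libraries. Grouped by the start of the symbol instead, all 17 polr copies (RNA polymerase subunits), all 11 mrpl copies (mitochondrial ribosome proteins), all 10 nop copies (nucleolar proteins) and all 10 nup copies (nuclear pore proteins) were higher in distal. Symbols starting with polr1 or nop are also part of the ribosome biogenesis list, so such copies are counted in both. Related groups were less uniform. Of 18 ddx copies (RNA helicases) 14 were higher and 3 lower, and of 13 eif copies (translation factors) 7 were higher and 2 lower. Ribosomal protein genes had 4 of 6 copies higher and 0 lower, with 1 higher beyond 1.5-fold. Fibrillarin, the methyltransferase that modifies ribosomal RNA, is shown by fbl.L with 124.2 and 128 CPM in distal and 72.3 and 71.0 CPM in proximal libraries (0.82 ± 0.09, edgeR adjusted p = 3.28e-05). The largest subunit of RNA polymerase I, polr1a.L, had 35.2 and 36.2 CPM in distal and 17.7 and 19.2 CPM in proximal libraries (0.94 ± 0.11, edgeR adjusted p = 8.27e-05). In both genes the segments did not overlap. The pseudouridine synthase gene dkc1.L behaved alike, with 386 and 423 CPM in distal and 238 and 231 CPM in proximal libraries (0.79 ± 0.10, edgeR adjusted p = 9.34e-05).

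The supply of building blocks followed. Of 32 copies of one-carbon and nucleotide synthesis genes, 27 were higher and 3 lower in distal, with a median of 0.71, and 12 higher and 1 lower beyond 1.5-fold. CTP synthase ctps1.S had 45.4 and 47.9 CPM in distal and 16.6 and 19.7 CPM in proximal libraries (1.34 ± 0.12, edgeR adjusted p = 8.32e-06). The purine enzyme gart.L had 39.1 and 39.3 CPM in distal and 19.7 and 20.2 CPM in proximal libraries (0.97 ± 0.10, edgeR adjusted p = 1.92e-05). Enzymes of the cytosolic folate cycle, mthfd1.L and shmt1.L, were among the higher ones at 0.89 ± 0.09 and 1.09 ± 0.13. The 3 lower copies were adss1.S (-2.97 ± 0.22), a purine-cycle enzyme best known from muscle, and the mitochondrial folate enzymes mthfd2.L (-0.45 ± 0.11) and aldh1l2.S (log2 fold change -0.83). Of the 3 calls, that of mthfd2.L did not pass without distal replicate 2 (edgeR adjusted p = 0.134). Among 16 tRNA synthetase copies 14 were higher and none lower (median 0.47), though 9 passed without proximal replicate 2, 6 without distal replicate 1 and 7 without distal replicate 2, and 0 beyond 1.5-fold. The amino acid exchanger slc7a5, which brings leucine into growing cells, rose at the tip in both copies, and slc7a5.L had 37.9 and 39.98 CPM in distal and 14.1 and 17.1 CPM in proximal libraries (1.29 ± 0.15, edgeR adjusted p = 7.24e-05). Its relative slc7a8 was lower at the tip in both copies, and slc7a8.L had 5.80 and 4.86 CPM in distal and 13.2 and 12.5 CPM in proximal libraries (-1.24 ± 0.15, edgeR adjusted p = 7.27e-05).

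Regulators known from stem cells and embryos accompanied these lists. In the list of progenitor growth regulators, 18 of 20 copies were higher in distal, 1 was lower, and the median was 0.77, with 9 higher beyond 1.5-fold. The growth-promoting transcription factor mycn.S had 228 and 235.6 CPM in distal and 99.8 and 92.2 CPM in proximal libraries (1.27 ± 0.09, edgeR adjusted p = 1.26e-06). Its relative myc.S had the opposite direction, with 13.1 and 9.86 CPM in distal and 28.8 and 34.02 CPM in proximal libraries (-1.44 ± 0.16, edgeR adjusted p = 8.18e-05). The 2 Myc genes thus separated the ends in opposite directions, each without overlap. The ubiquitin ligase trim71.S, a partner of the Lin28 pathway in animal development, had 34.5 and 41.3 CPM in distal and 17.7 and 16.6 CPM in proximal libraries (1.15 ± 0.14, edgeR adjusted p = 8.69e-05). Genes of mRNA splicing did not share one direction: 24 of 41 copies were higher and 15 lower in distal, all by less than 2-fold, and none passed beyond 1.5-fold. Leaving out proximal replicate 2, distal replicate 1 or distal replicate 2 gave 14, 8 and 15 higher and 7, 4 and 9 lower. Of 63 copies of chromatin modifiers 24 were higher and 24 lower, with 14 higher and 15 lower without distal replicate 1. Among all symbol-bearing genes, 13.7% were at least 2-fold higher and 27.6% at least 2-fold lower. A lean to the lower side by size is therefore not particular to this list. Of the chromatin copies, 4 were at least 2-fold higher and 10 at least 2-fold lower, with 5 higher and 11 lower beyond 1.5-fold. Among them the nucleosome remodeller chd5.L had 8.26 and 8.24 CPM in distal and 56.1 and 57.1 CPM in proximal libraries (-2.78 ± 0.11, edgeR adjusted p = 1.85e-08), and the Polycomb partner jarid2.L had 152 and 171 CPM in distal and 65.0 and 85.2 CPM in proximal libraries (1.09 ± 0.12, edgeR adjusted p = 6.19e-05).

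**Figure D3:**
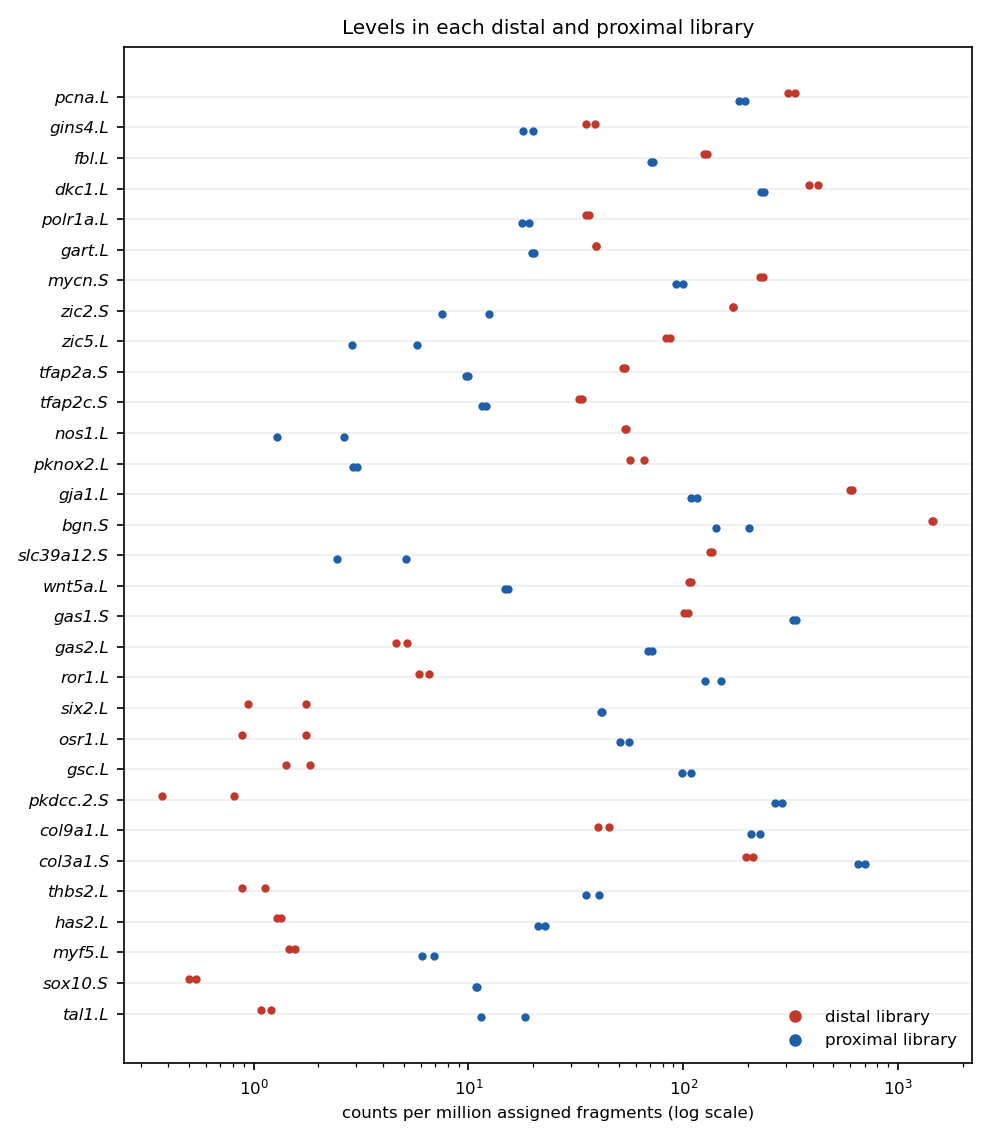
CPM (horizontal axis, log scale) in each distal library (red) and each proximal library (blue) for a selection of gene copies, from growth genes and distal regulators at the top to proximal genes at the bottom. Distal and proximal libraries lie apart in each copy shown, closely for growth genes such as pcna.L (log2 fold change 0.77) and widely for pkdcc.2.S (-8.98).

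Transcription factor families outside the classic limb patterning sets divided between the ends. The Zic genes, zinc finger factors best known from neural and body-wall development, were distal. In the list of Zic and Gli-like zinc fingers, 9 of 13 copies were higher and 3 lower in distal, with a median of 2.96. The genes zic2 and zic5 lie side by side on both subgenomes, at chr2L:119855958-119860501 and chr2L:119873364-119881768 for the L copies in the coordinates of the counting table, whose genome build is not given in the sources used here. Copy zic2.S had 170.2 and 170.3 CPM in distal and 12.5 and 7.56 CPM in proximal libraries (4.18 ± 0.19, edgeR adjusted p = 7.47e-07), and zic5.L had 86.9 and 83.1 CPM in distal and 5.76 and 2.86 CPM in proximal libraries (4.50 ± 0.23, edgeR adjusted p = 4.06e-06). In each case the distal values stood far above the proximal ones. The related glis3 was lower at the tip, and glis3.S had 2.00 and 1.49 CPM in distal and 13.1 and 14.6 CPM in proximal libraries (-2.96 ± 0.18, edgeR adjusted p = 4.32e-07).

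All 10 tested tfap copies were higher in distal, 9 of them by at least 2-fold. Of the 10, 8 are AP-2 factors, which act in surface ectoderm, neural crest and limb mesenchyme, and the other two are copies of tfap4, a factor of another family. Without proximal replicate 2, tfap2b.S and tfap2c.L did not pass (edgeR adjusted p = 0.0670 and 0.0951). Copy tfap2a.S had 52.4 and 53.7 CPM in distal and 9.92 and 9.74 CPM in proximal libraries (2.43 ± 0.14, edgeR adjusted p = 2.40e-07). Copy tfap2e.L had 27.7 and 28.0 CPM in distal and 3.31 and 1.82 CPM in proximal libraries (3.61 ± 0.20, edgeR adjusted p = 2.28e-07). The highest fold was that of tfap2b.L, with 177 and 180.0 CPM in distal and 15.02 and 8.205 CPM in proximal libraries (4.05 ± 0.71, edgeR adjusted p = 0.0284), but this call did not hold when any 1 of the 4 libraries was left out (edgeR adjusted p between 0.103 and 0.171). Epidermal genes are described further on, and since AP-2 factors also mark ectoderm, the part of the skin in these values was not tested.

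Nuclear factor I (NFI) and early B-cell factor (EBF) genes share a list with AP-2 here. The 7 of 17 copies that were lower in distal were all NFI or EBF genes and all at least 2-fold lower, while 1 copy of nfia was higher and ebf3.L was not called. Of 13 copies with 10 or more counts in every library, 3 were lower. Copy nfix.S had 0.375 and 0.203 CPM in distal and 6.52 and 8.26 CPM in proximal libraries (-4.59 ± 0.43, edgeR adjusted p = 2.09e-05). In mammals Nfix takes part in the switch to later stages of muscle and brain development. The adipose and nerve factor ebf2.L had 0.375 and 0.270 CPM in distal and 9.07 and 9.83 CPM in proximal libraries (-4.81 ± 0.34, edgeR adjusted p = 1.17e-06). Of 13 copies of POU, sine oculis-related, Eya and Dach genes, 12 were lower in distal and 1, dach2.L, was higher. The homeobox gene six2.L, expressed in kidney progenitors and in tendon and fascia mesenchyme of other vertebrates, had 1.75 and 0.946 CPM in distal and 41.7 and 41.2 CPM in proximal libraries (-4.86 ± 0.18, edgeR adjusted p = 1.20e-08). The zinc finger gene osr1.L, a marker of irregular connective tissue precursors in chick and mouse limbs, had 1.75 and 0.878 CPM in distal and 50.9 and 56.1 CPM in proximal libraries (-5.25 ± 0.18, edgeR adjusted p = 9.77e-09).

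Sox genes were also proximal, with 13 of 17 copies lower in distal and 1 higher (median -1.18). Without proximal replicate 2 the counts were 8 lower and 0 higher, and without distal replicate 1 no copy was higher, and 7 were lower beyond 1.5-fold. The member sox4.L, common in embryonic progenitors, had 52.7 and 45.5 CPM in distal and 205 and 206 CPM in proximal libraries (-2.06 ± 0.11, edgeR adjusted p = 1.84e-07). Among 22 copies of nuclear receptors, 16 were lower and 2 higher in distal, with a median of -1.25, and the higher ones numbered 1 without distal replicate 1 and 0 without distal replicate 2. The orphan receptor nr2f1.L, known as COUP-TF1, had 6.30 and 5.47 CPM in distal and 39.3 and 42.5 CPM in proximal libraries (-2.79 ± 0.18, edgeR adjusted p = 1.29e-06). Genes that handle or answer thyroid hormone, the trigger of amphibian metamorphosis, had 14 of 21 copies lower and 3 higher in distal, with 7 lower beyond 1.5-fold. The activating deiodinase dio2.S had 6.26 and 5.81 CPM in distal and 28.4 and 28.4 CPM in proximal libraries (-2.23 ± 0.13, edgeR adjusted p = 3.19e-07). Copy dio2.L was also lower in distal, with 238 and 242 CPM in distal and 389.8 and 368 CPM in proximal libraries (-0.66 ± 0.10, edgeR adjusted p = 0.000502).

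Signalling genes with steep distal levels came from several families. The ligand wnt5a, which drives oriented outgrowth without beta-catenin, was higher at the tip in both copies, and wnt5a.L had 106 and 109 CPM in distal and 15.3 and 14.7 CPM in proximal libraries (2.84 ± 0.10, edgeR adjusted p = 5.61e-09). Its receptors of the Ror family had the opposite direction in all 4 copies tested. Copy ror1.L had 5.88 and 6.55 CPM in distal and 126 and 149 CPM in proximal libraries (-4.48 ± 0.13, edgeR adjusted p = 2.21e-09). Copy ror2.S, chosen after its values were seen as the main Wnt5a receptor of the mouse limb, had 31.9 and 29.9 CPM in distal and 72.5 and 83.3 CPM in proximal libraries (-1.34 ± 0.12, edgeR adjusted p = 1.16e-05). The kinesin kif26a.L, whose mouse relative Kif26b acts downstream of Wnt5a and Ror, had 88.8 and 98.3 CPM in distal and 13.03 and 12.5 CPM in proximal libraries (2.88 ± 0.17, edgeR adjusted p = 1.71e-06) and was likewise picked after its values were seen. The list of planar polarity and non-canonical Wnt genes as a whole had no single direction, with 8 of 25 copies higher and 12 lower (5 higher without distal replicate 1, and 4 higher and 7 lower beyond 1.5-fold).

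The gap junction protein connexin 43, encoded by gja1, was distal in both copies. Copy gja1.L had 596 and 609.9 CPM in distal and 115 and 109 CPM in proximal libraries (2.43 ± 0.10, edgeR adjusted p = 2.11e-08). The vessel connexin gja4.L had 3.80 and 4.32 CPM in distal and 17.8 and 13.4 CPM in proximal libraries (-1.92 ± 0.19, edgeR adjusted p = 2.12e-05). The FGF-pathway inhibitor il17rd.L, also called Sef, had 106 and 120.0 CPM in distal and 22.1 and 20.9 CPM in proximal libraries (2.40 ± 0.10, edgeR adjusted p = 2.69e-08). Among chemokine genes the attractant and its scavenger parted. The chemokine cxcl12.L had 81.2 and 80.4 CPM in distal and 294 and 277 CPM in proximal libraries (-1.82 ± 0.11, edgeR adjusted p = 3.54e-07), and the receptor ackr3.S, which takes CXCL12 out of the surroundings, had 92.0 and 87.9 CPM in distal and 39.01 and 35.1 CPM in proximal libraries (1.29 ± 0.14, edgeR adjusted p = 9.62e-05). The R-spondin receptor lgr5, a stem cell marker in several mouse epithelia, was distal in both copies, with 11.1 and 11.3 CPM of lgr5.L in distal and 4.34 and 3.75 CPM in proximal libraries (1.49 ± 0.17, edgeR adjusted p = 6.10e-05). The copy lgr5.S shares 15.02% of its exon bases with a gene on the other strand, and strand was not used in counting.

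Further genes with high distal levels came from mixed families. The zinc transporter slc39a12.S had 132 and 135.3 CPM in distal and 5.10 and 2.44 CPM in proximal libraries (5.36 ± 0.25, edgeR adjusted p = 3.87e-06). Solute carriers as a family had 41 of 104 copies higher and 54 lower in distal, near the shares of all symbol-bearing genes, with 26 higher when proximal replicate 2 was left out and 17 higher beyond 1.5-fold. Neuronal nitric oxide synthase, nos1.L, had 54.03 and 53.5 CPM in distal and 2.64 and 1.29 CPM in proximal libraries (5.01 ± 0.21, edgeR adjusted p = 6.90e-08). The TALE homeobox gene pknox2.L, a relative of the Meis genes, had 65.5 and 56.4 CPM in distal and 3.02 and 2.91 CPM in proximal libraries (4.37 ± 0.14, edgeR adjusted p = 4.66e-09). Both nos1.L and pknox2.L were chosen after their values were seen. The acid-sensing channel asic4.L had 11.3 and 12.6 CPM in distal and 0.945 and 0.392 CPM in proximal libraries (4.45 ± 0.33, edgeR adjusted p = 1.81e-06), and the lipid transfer protein gene pltp.L had 20.9 and 22.9 CPM in distal and 2.55 and 1.26 CPM in proximal libraries (3.74 ± 0.44, edgeR adjusted p = 0.00131).

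The proximal segment carried more RNA for most classes of extracellular matrix. Of 44 collagen copies, 38 were lower in distal and 1 was higher, with a median of -1.23 and 23 copies at least 2-fold lower. The list summed to 9665 and 9586 CPM in distal and 17648 and 19160 CPM in proximal libraries. The fibrillar collagen gene col3a1.S, of soft connective tissue, had 211 and 197 CPM in distal and 653 and 703 CPM in proximal libraries (-1.73 ± 0.12, edgeR adjusted p = 1.15e-06). Cartilage collagen col9a1.L had 45.0 and 40.2 CPM in distal and 207 and 228 CPM in proximal libraries (-2.35 ± 0.13, edgeR adjusted p = 1.59e-07). The lowest folds of the list were those of both copies of col21a1, a collagen associated with fibrils. Copy col21a1.S had 0.125 and 0.338 CPM in distal and 26.1 and 26.99 CPM in proximal libraries (-6.97 ± 0.31, edgeR adjusted p = 4.35e-08). The exception in the other direction was the basement membrane collagen col4a5.S, with 15.9 and 16.8 CPM in distal and 7.56 and 5.21 CPM in proximal libraries (1.43 ± 0.17, edgeR adjusted p = 6.19e-05).

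Enzymes that process collagen moved with it. Of 36 copies, 31 were lower in distal and 4 higher (median -0.85), and the higher ones numbered 0 without proximal replicate 2 and 1 without any other of the 4 libraries. Beyond 1.5-fold, 17 were lower and 0 higher. The crosslinking oxidase loxl3.S had 26.3 and 27.6 CPM in distal and 185 and 211 CPM in proximal libraries (-2.88 ± 0.10, edgeR adjusted p = 8.50e-09), and the lysyl hydroxylase plod2.S had 1.71 and 1.69 CPM in distal and 11.7 and 12.3 CPM in proximal libraries (-2.82 ± 0.17, edgeR adjusted p = 4.41e-07). The secreted kinase gene pkdcc.2.S, related to a kinase that phosphorylates matrix proteins and is needed for long bone growth in mice, was nearly restricted to the proximal libraries. It had 0.375 and 0.810 CPM in distal and 267 and 289 CPM in proximal libraries (-8.98 ± 0.19, edgeR adjusted p = 4.13e-10) and was picked after its values were seen. Among 49 copies of metalloproteinases and their inhibitors, 33 were lower and 12 higher in distal, with 7 higher beyond 1.5-fold. The membrane-anchored mmp23b.S had 1.08 and 1.89 CPM in distal and 58.5 and 58.3 CPM in proximal libraries (-5.37 ± 0.17, edgeR adjusted p = 4.66e-09).

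Proteoglycans showed a list and a sum that differ in sign. Of 34 copies, 25 were lower in distal and 2 higher, with a median of -1.49, yet the summed level was 3295 and 3364 CPM in distal and 2406 and 2262 CPM in proximal libraries. The 2 copies that were higher are both of biglycan. Copies bgn.S and bgn.L gave 43.5% and 28.1% of the fragments of the list in distal. Biglycan is a small leucine-rich proteoglycan that binds collagen fibrils and growth factors. Copy bgn.S had 1436 and 1459.7 CPM in distal and 203 and 143 CPM in proximal libraries (3.07 ± 0.20, edgeR adjusted p = 4.91e-06). Copy bgn.L had 920.4 and 953 CPM in distal and 604 and 542 CPM in proximal libraries (0.71 ± 0.12, edgeR adjusted p = 0.000917). Its relative osteoglycin, ogn.L, had 1.92 and 0.675 CPM in distal and 56.5 and 49.3 CPM in proximal libraries (-5.20 ± 0.41, edgeR adjusted p = 0.000396). The cartilage proteoglycan acan.L had 2.00 and 1.08 CPM in distal and 11.996 and 14.4 CPM in proximal libraries (-3.04 ± 0.22, edgeR adjusted p = 1.78e-06), and the hyaluronan synthase has2.L had 1.34 and 1.28 CPM in distal and 20.97 and 22.8 CPM in proximal libraries (-4.06 ± 0.17, edgeR adjusted p = 2.11e-08).

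Of 87 copies of matrix glycoproteins, 58 were lower and 22 higher in distal, and the higher ones numbered 12 without proximal replicate 2 and 13 beyond 1.5-fold. Thrombospondins, which bind calcium, matrix and growth factors, lay at both ends. The anti-angiogenic member thbs1.S had 150.1 and 156 CPM in distal and 20.5 and 18.4 CPM in proximal libraries (2.99 ± 0.13, edgeR adjusted p = 3.45e-08). The tendon and muscle-attachment member thbs4.L had 42.4 and 36.9 CPM in distal and 2.17 and 3.05 CPM in proximal libraries (3.83 ± 0.20, edgeR adjusted p = 3.93e-07). In contrast thbs2.L had 1.13 and 0.878 CPM in distal and 35.3 and 40.6 CPM in proximal libraries (-5.21 ± 0.19, edgeR adjusted p = 8.50e-09). The elastic fibre protein gene fbln5.S had 0.167 and 0.203 CPM in distal and 8.12 and 9.91 CPM in proximal libraries (-5.62 ± 0.30, edgeR adjusted p = 1.47e-07). Distal genes in the list included frem1.L, a basement membrane protein that ties epidermis to mesenchyme in fins and limbs, with 115 and 134.2 CPM in distal and 40.3 and 38.5 CPM in proximal libraries (1.66 ± 0.12, edgeR adjusted p = 1.16e-06, chosen after its values were seen).

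**Figure D4:**
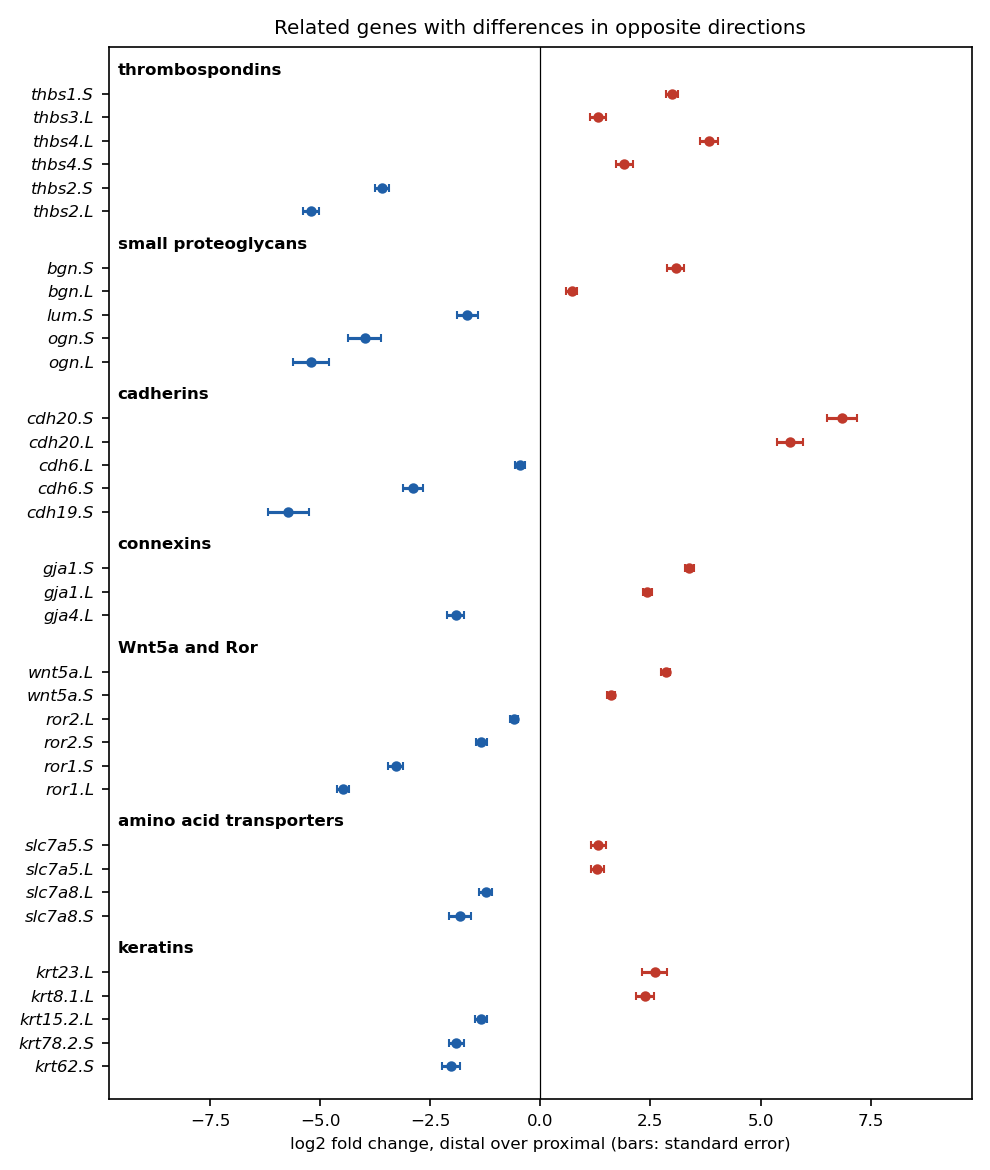
Log2 fold change, distal over proximal (horizontal axis, with bars for the standard error), of copies from 7 groups of related genes (rows), in red where called higher in distal and in blue where called lower. Each group has members on both sides of 0, for example thbs4.L at 3.83 and thbs2.L at -5.21.

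Adhesion molecules were proximal by count, with single members standing out at the tip. Of 41 cadherin and protocadherin copies, 28 were lower and 10 higher in distal, with 6 higher without proximal replicate 2. Beyond 1.5-fold, 18 were lower and 5 higher, and of 29 copies with 10 or more counts in every library 5 were higher. Type II cadherins can sort cells by adhesion. Copy cdh20.S had 19.7 and 22.1 CPM in distal and 0.378 and 0.112 CPM in proximal libraries (6.85 ± 0.34, edgeR adjusted p = 9.57e-08), and cdh20.L had 10.9 and 9.32 CPM in distal and 0.189 and 0.196 CPM in proximal libraries (5.67 ± 0.30, edgeR adjusted p = 1.28e-07). The opposite was seen for cdh6.S, with 2.80 and 3.04 CPM in distal and 20.2 and 22.7 CPM in proximal libraries (-2.90 ± 0.23, edgeR adjusted p = 9.07e-06). Its other copy cdh6.L had a smaller step (-0.46, edgeR adjusted p = 0.0109) that did not pass beyond 1.5-fold. Of 22 integrin copies, 15 were lower and 5 higher in distal, with 3 higher beyond 1.5-fold. The fibronectin and VCAM receptor chain itga4.S had 12.5 and 15.5 CPM in distal and 2.83 and 2.66 CPM in proximal libraries (2.36 ± 0.18, edgeR adjusted p = 2.28e-06). The platelet chain itga2b.2.L had 0.960 and 1.15 CPM in distal and 13.4 and 14.2 CPM in proximal libraries (-3.74 ± 0.19, edgeR adjusted p = 9.59e-08). Guidance genes also leaned to the proximal side, 34 of 57 copies being lower and 18 higher, with 20 lower and 7 higher beyond 1.5-fold. The axon guidance ligand ntn1.S had 3.84 and 3.98 CPM in distal and 68.3 and 66.0 CPM in proximal libraries (-4.10 ± 0.14, edgeR adjusted p = 5.61e-09). Ephrins and their receptors had 10 of 16 copies lower and 4 higher in distal (median -0.66), with 6 lower and 2 higher beyond 1.5-fold. Among the higher ones epha4.L, a receptor of distal limb mesenchyme in other vertebrates, had 511 and 543 CPM in distal and 186 and 185 CPM in proximal libraries (1.505 ± 0.10, edgeR adjusted p = 9.84e-07).

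Receptors for hormones and growth factors were mostly proximal. Of 92 copies of G protein-coupled receptors, 66 were lower and 23 higher in distal, with a median of -1.26 and 50 copies at least 2-fold lower. The endothelin receptor ednrb2.S, which guides pigment cell precursors in birds, had 0.626 and 0.135 CPM in distal and 7.46 and 8.62 CPM in proximal libraries (-4.22 ± 0.45, edgeR adjusted p = 0.000122), and the prostaglandin receptor ptger4.S had 0.459 and 0.0675 CPM in distal and 5.10 and 5.77 CPM in proximal libraries (-4.15 ± 0.38, edgeR adjusted p = 9.48e-06). Of 52 G protein-coupled receptor copies with 10 or more counts in every library, 34 were lower and 14 higher, with a median of -0.64. Of 50 copies of receptor tyrosine kinases and ligands outside the FGF family, 35 were lower and 11 higher in distal, and the higher ones numbered 7 without proximal replicate 2 or without distal replicate 1, and 5 beyond 1.5-fold. Of 37 such copies with 10 or more counts in every library, 24 were lower and 11 higher. Their median was -0.81, against -1.24 for all 50. The artemin receptor gfra3.L had 0.542 and 0.540 CPM in distal and 20.6 and 22.8 CPM in proximal libraries (-5.32 ± 0.36, edgeR adjusted p = 1.20e-05). The attractant of migrating muscle precursors, hgf.L, had 1.00 and 0.608 CPM in distal and 12.3 and 10.7 CPM in proximal libraries (-3.75 ± 0.24, edgeR adjusted p = 6.28e-07), and its receptor met.L had 0.751 and 0.608 CPM in distal and 2.27 and 1.96 CPM in proximal libraries (-1.57 ± 0.36, edgeR adjusted p = 0.00653). Ligand and receptor were chosen after their values were seen. In the other direction the EGF receptor copy egfr.S had 10.6 and 13.6 CPM in distal and 4.25 and 3.56 CPM in proximal libraries (1.65 ± 0.21, edgeR adjusted p = 0.000121). In the TGF-beta and activin system 19 of 26 copies were lower and 4 higher in distal, with 11 lower and 2 higher beyond 1.5-fold. The ligand tgfb2.S had 8.93 and 7.29 CPM in distal and 29.3 and 38.9 CPM in proximal libraries (-2.08 ± 0.16, edgeR adjusted p = 5.46e-06).

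Markers of skeletal and connective tissue precursors were mostly proximal. Of 46 copies linked to cartilage condensation, 39 were lower and 4 higher in distal (median -1.53), and the list summed to 1732 and 1715 CPM in distal and 3262 and 3751 CPM in proximal libraries. The higher copies numbered 1 without proximal replicate 2 and 0 without any other of the 4 libraries, 1 with DESeq2, 2 among copies with 10 or more counts in every library and 0 beyond 1.5-fold. The joint-forming ligand gdf5.L had 0.459 and 0.405 CPM in distal and 30.0 and 31.3 CPM in proximal libraries (-6.12 ± 0.21, edgeR adjusted p = 6.75e-09), and the homeobox gene barx1.S, also found at joints, had 0.834 and 0.270 CPM in distal and 15.4 and 14.1 CPM in proximal libraries (-4.57 ± 0.28, edgeR adjusted p = 3.91e-07). Of 38 copies in the tendon, ligament and joint list, 30 were lower and 6 higher in distal, with a median of -1.78. Of its 30 copies with 10 or more counts in every library, 23 were lower and 6 higher, with a median of -0.99. That list shares gdf5 and barx1 with the cartilage list. The 6 higher copies of the tendon, ligament and joint list include thbs4.L (log2 fold change 3.83), thbs4.S (1.91) and htra3.L (2.35). Hox families went in both directions. The 13 copies of hoxb were all lower in distal, all by at least 2-fold, and summed to 5.47 and 5.40 CPM in distal libraries. In proximal libraries they summed to 58.7 and 68.1 CPM. All 12 hoxa copies were higher in distal, and of 11 hoxd copies 9 were higher and 1 lower.

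Genes of tissues that enter the limb from the body were mostly lower at the tip. Of 26 copies of muscle precursor genes, 25 were lower in distal and none was higher, with a median of -2.16 and summed levels of 156 and 126 CPM in distal and 343.7 and 348 CPM in proximal libraries. Of 16 copies with 10 or more counts in every library, 15 were lower. The myogenic factor myf5.L had 1.46 and 1.55 CPM in distal and 6.05 and 6.92 CPM in proximal libraries (-2.13 ± 0.22, edgeR adjusted p = 2.77e-05). The differentiation factor myog.L had no fragment in either distal library and 1.32 and 1.12 CPM in the proximal libraries, at least 6.03-fold lower in distal against the floor of 3 counts per library. Contractile muscle genes had 25 of 35 copies lower and 1 higher (0 higher without proximal replicate 2), at low levels, since all 35 together summed to 53.7 and 30.3 CPM in distal and 114 and 167 CPM in proximal libraries. The copies with 10 or more counts in every library numbered 8, and 8 were lower.

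Glial and nerve genes were also mostly lower at the tip by count of copies, with exceptions among the glial ones. Of 21 copies in the list of Schwann cells and neural crest glia, 16 were lower and 5 higher in distal, with a median of -2.54. Of 11 copies with 10 or more counts in every library, 6 were lower and 5 higher, with a median of -1.01. The defining glial factor sox10.S had 0.501 and 0.540 CPM in distal and 10.96 and 10.9 CPM in proximal libraries (-4.39 ± 0.33, edgeR adjusted p = 3.38e-06), and the Schwann cell cadherin cdh19.S had 0.250 and 0.0675 CPM in distal and 10.7 and 9.16 CPM in proximal libraries (-5.73 ± 0.46, edgeR adjusted p = 1.38e-05). The summed level of the list was close at both ends, at 222 and 246 CPM in distal and 230.1 and 263 CPM in proximal libraries. Its 5 higher copies include tfap2a.L and tfap2a.S, which gave 28.7% and 22.7% of the fragments of the list in distal. Also among the 5 were ncmap.L (log2 fold change 3.45, edgeR adjusted p = 4.02e-07) and fabp7.L (1.79, edgeR adjusted p = 0.000179). Of 19 neuron copies 14 were lower and 3 higher, and of 10 copies with 10 or more counts in every library 8 were lower and 1 higher. The dendrite protein gene map2.S had 0.292 and 0.540 CPM in distal and 5.67 and 6.33 CPM in proximal libraries (-3.94 ± 0.30, edgeR adjusted p = 2.45e-06). Pigment cell genes had 8 of 11 copies lower and 2 higher (1 higher without proximal replicate 2), and 51.2% of the fragments of that list in proximal came from alx4.S, which is also a limb patterning gene.

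Vessel and blood genes were lower at the tip as well. Of 28 endothelial copies, 25 were lower and 2 higher in distal, with a median of -1.12 and summed levels of 553 and 513 CPM in distal and 867 and 852 CPM in proximal libraries. The junction cadherin cdh5.S, which defines endothelium, had 6.17 and 5.27 CPM in distal and 11.996 and 10.2 CPM in proximal libraries (-0.93 ± 0.16, edgeR adjusted p = 0.00126). Its other copy cdh5.L had a smaller step in the same direction (-0.60, edgeR adjusted p = 0.00482), and neither copy passed beyond 1.5-fold. The blood and endothelial factor tal1.L had 1.21 and 1.08 CPM in distal and 11.4 and 18.2 CPM in proximal libraries (-3.73 ± 0.34, edgeR adjusted p = 0.000102). All 35 copies of red blood cell genes were lower in distal, with a median of -4.09, and they summed to 2855 and 1469 CPM in distal and 33484 and 45972 CPM in proximal libraries. White blood cell genes had 17 of 19 copies lower and none higher (11 lower without distal replicate 2 and 10 lower beyond 1.5-fold), with a median of -1.11. The plot of summed levels gives 9 of the lists by library. With the red blood cell genes left out before scaling, 7944 genes were called in place of 7975, of which 7936 were called in both.

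**Figure D5:**
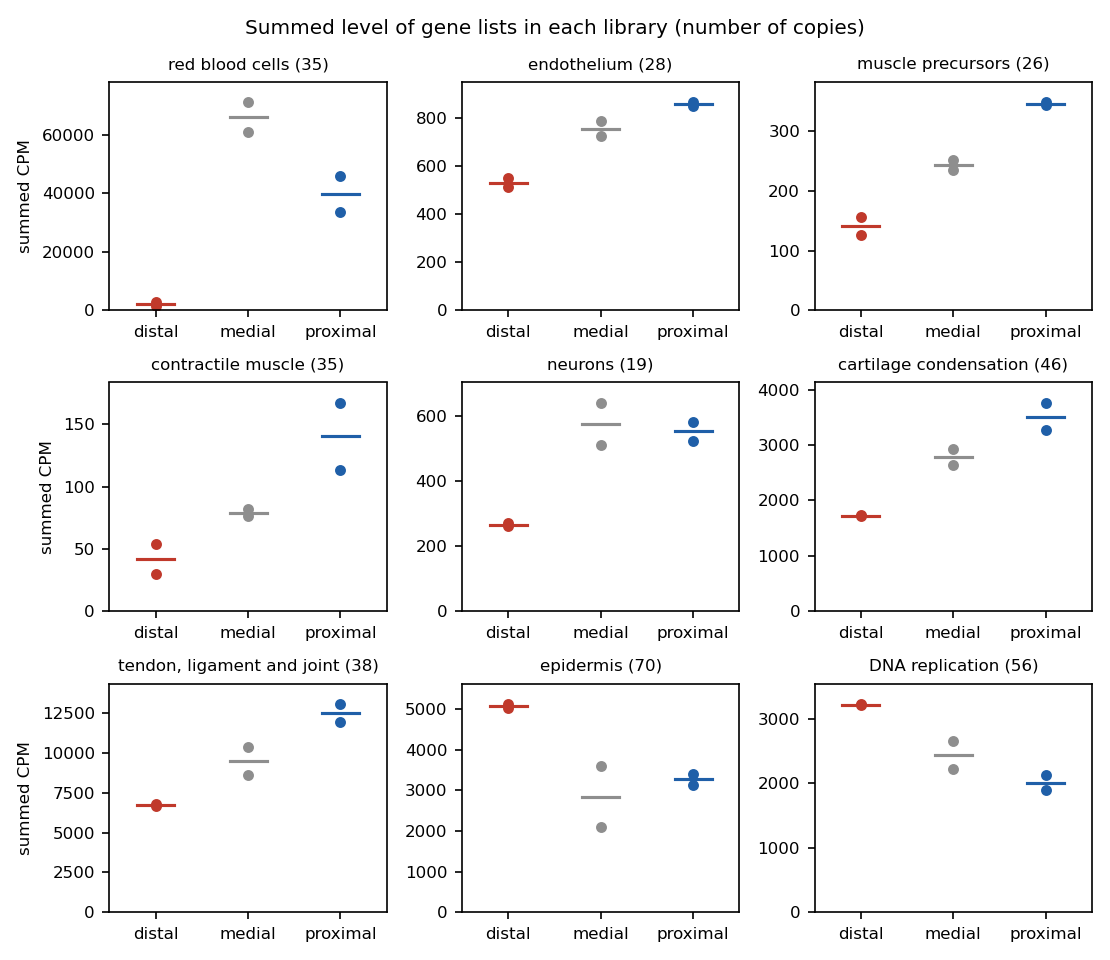
Summed CPM (vertical axes, from 0) of 9 gene lists in each library of the distal (red), medial (grey) and proximal (blue) segments, with a bar for the mean of the 2 pools. Red blood cell genes summed to 2855 and 1469 CPM in distal and 33484 and 45972 CPM in proximal libraries, while DNA replication and epidermal lists were highest in distal.

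Skin genes went in both directions. Of 70 epidermal copies, 37 were higher and 14 lower in distal, with a median of 0.78 and summed levels of 5034 and 5118 CPM in distal and 3406 and 3138 CPM in proximal libraries. In distal, krt7.L gave 20.4% and krt12.2.L 15.9% of the fragments of the list, and neither copy passed beyond 1.5-fold. The higher count rests on few libraries: it was 20 without proximal replicate 1, 7 without proximal replicate 2, 13 without distal replicate 1 and 20 without distal replicate 2, and 13 beyond 1.5-fold. The defining epidermal factor tp63.L had 37.8 and 39.1 CPM in distal and 31.5 and 30.2 CPM in proximal libraries and did not pass the test (edgeR adjusted p = 0.461). Keratins lay in both directions, with 12 of 25 copies (48%) higher and 10 (40%) lower. These shares are near those of all symbol-bearing genes, at 41.2% higher and 47.4% lower. The simple-epithelium keratin krt8.1.L had 53.99 and 51.8 CPM in distal and 12.7 and 8.76 CPM in proximal libraries (2.37 ± 0.21, edgeR adjusted p = 8.50e-05). The highest fold among keratins was that of krt12.2.L, with 757 and 858 CPM in distal and 60.6 and 27.6 CPM in proximal libraries (4.24 ± 0.85, edgeR adjusted p = 0.0413), a call that did not hold without any 1 of the 4 libraries (edgeR adjusted p between 0.116 and 0.182). In contrast krt15.2.L had 32.7 and 33.8 CPM in distal and 87.8 and 82.2 CPM in proximal libraries (-1.35 ± 0.14, edgeR adjusted p = 3.87e-05), and krt62.S had 136 and 125 CPM in distal and 554 and 507 CPM in proximal libraries (-2.02 ± 0.21, edgeR adjusted p = 0.000251). Keratins lie in clusters of similar genes, fragments matching several genes were not counted, and krt62.S shares 24.9% of its exon bases with another gene, so single keratin values are uncertain.

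Few genes were present at one end alone. With a mean of at least 5 CPM at one end and 3 or fewer counts in both libraries of the other, 2 genes were found in distal and 16 in proximal, of which 14 had a symbol. The genes given here were chosen after their values were seen. Each fold is the ratio of summed fragments per assigned total, with the totals scaled by the TMM method. Its exact 95% interval is for counting error alone. The forkhead gene foxf2.L had 353 and 212 fragments in the distal libraries and 2 and 3 in the proximal libraries, 134.9-fold higher in distal (interval 57.5 to 417). Both copies of gata5, a factor of heart and lateral plate mesoderm, were among the proximal genes. Copy gata5.L had 0 and 2 fragments in the distal libraries and 156 and 531 in the proximal libraries, 288-fold lower in distal (interval 79.3 to 2380.2). The homeobox gene gsc.S, known from the embryonic organizer, had 2 and 1 fragments in the distal libraries and 591 and 2003 in the proximal libraries, 724-fold lower in distal (interval 248 to 3514). These counts of genes depend on depth, since 3 counts stood for 0.125 and 0.203 CPM in the distal libraries and for 0.283 and 0.0840 CPM in the proximal libraries.

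The medial segment, which was not used in the contrast itself, stood between the 2 ends for 2723 (74.2%) of the genes called higher and 2893 (67.2%) of the genes called lower in distal. On the log2 scale of CPM plus 0.5, its mean was nearer to proximal than to distal for 3044 (83.0%) of the genes higher in distal. The same held for 3012 (69.9%) of the genes lower in distal. Genes that were lower in distal stood above both ends in the medial segment in 1187 cases (27.6%), and genes that were higher in distal stood below both ends there in 837 cases (22.8%). These counts are a description and carry no test.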

How the data were processed

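The authors' deposited table holds raw fragment counts per gene from paired-end RNA-seq of total RNA. Counting was done with featureCounts 2.0.1 after Trimmomatic 0.39, HISAT2 2.2.1 and SAMtools 1.10, per the submitters' processing notes and the file headers. The recorded settings were defaults apart from the paired-end option, so strand was not used and fragments matching several places or genes were not counted. The genome build is not given in the sources used here. A further deposited table holds the authors' own log2 fold changes and adjusted p-values (DESeq2 1.30.1, per the submitters' processing notes). Only its gene symbols were used here.

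From the counts, edgeR 4.0.16 in R 4.3.3 was run on all 6 libraries with segment as the only term, TMM scaling, filterByExpr (minimum count 10, minimum total count 15) and the robust quasi-likelihood F test, leaving 3 residual degrees of freedom. P-values were adjusted by Benjamini-Hochberg over 27007 genes with a threshold of 0.05. Standard errors are the log2 fold change over the square root of F. The script was tested on simulated data. Alternatives used DESeq2 1.42.0 and limma 3.58.1. The p-values weigh each difference against the spread between 2 pools per segment. That spread is estimated over all segments together, medial included, with information shared across genes.

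The gene lists and the genes described were chosen with earlier results of these data known. For each list the text draws on up to 3 copies called in each direction with the largest folds, at least 2-fold and at least 5 CPM at the higher end, passing over classic patterning genes. Chosen after their values were seen were also bgn.L, cdh5.S, cenpf.L, col3a1.S, col9a1.L, dio2.L, dkc1.L, fbl.L, gart.L, gja4.L, krt15.2.L, krt62.S, krt8.1.L, lgr5.L, mthfd1.L, mthfd2.L, myf5.L, myog.L, nr2f1.L, pcna.L, polr1a.L, slc7a8.L, tfap2a.S, top2a.L, tp63.L and those said to be so in the text. So were cdh5.L, cdh6.L and krt7.L. The ribosome biogenesis list was corrected after it had caught unrelated fibulin genes. Mean deviations of same-numbered pools were compared across segments to see whether the numbers pair the samples. Some results are not reported here.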

Additional observations from a re-analysis of the deposited data

How the results depend on the processing

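Requiring a difference beyond 1.5-fold left 3169 genes called, 1015 higher and 2154 lower in distal. With at least 10 counts in every library, 776 genes were at least 2-fold higher and 1451 at least 2-fold lower. Leaving out 1 library at a time gave 4598 to 7028 genes called, 1901 to 3116 higher and 2697 to 3912 lower, with 791 to 1164 at least 2-fold higher and 1907 to 2424 at least 2-fold lower. A segment left with 1 library is then assumed to vary like the others. At a level of 1 CPM, 41 genes were present in distal alone and 170 in proximal alone, and at 0 counts at the other end, 0 and 3. The other settings gave totals within 1.5 times of 7975, with 7967 under RLE size factors, 5911 with DESeq2 and 8132 with limma-voom. Deviations of same-numbered pools correlated at 0.0251, which does not show whether they came from the same animals, and the paired fit with a replicate block called 8812 genes. The medians of ion channels, Hippo and ETS lists changed sign under 1 setting each. Of 332 copies called and followed singly, 273 were called under every alternative that gave a value, and 0 had another sign. These 332 copies were mostly chosen for large folds or after their values were seen, so their shares do not stand for all genes called. Depth differed, with 14111643 and 10815041 assigned fragments in the shallowest distal and proximal libraries.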

Other observations

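Of 13 named copies of oxidative phosphorylation genes, 12 were higher and 1 lower in distal (median log2 fold change 0.35, and 0.30 to 0.41 over the alternatives). The higher ones numbered 6 without proximal replicate 2, 4 without distal replicate 1 and 0 beyond 1.5-fold. Glycolysis genes had 10 of 17 copies higher and 5 lower, with 5 higher without proximal replicate 2, 4 without distal replicate 1, 5 without distal replicate 2 and 0 beyond 1.5-fold. Cytochrome P450 and detoxification genes had 24 of 57 copies higher and 21 lower, and the higher ones numbered 13 without proximal replicate 2, 14 without distal replicate 1 and 14 without distal replicate 2, with 8 higher and 12 lower beyond 1.5-fold.

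Ion channels had 28 of 73 copies higher and 37 lower in distal, with 17 higher beyond 1.5-fold and 19 of 40 copies lower at 10 or more counts in every library. Their summed level was 390 and 393 CPM in distal and 469 and 454 CPM in proximal libraries. By subgenome, 14.7% of 14110 tested L genes were higher and 16.1% lower in distal, against 13.5% and 16.3% of 10454 tested S genes. No test was made of these shares.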
